A study of Mus musculus with 98 samples.

Results

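The genes described here encode the proteins of the cytosolic ribosome, followed through mouse CD4 T cells that had gained or lost STAT5, the transcription factor pair (STAT5A and STAT5B) switched on by the interleukin-2 (IL-2) receptor. Members were chosen by symbol alone: Rps or Rpl followed by a number, Rplp0 to Rplp2, and Rpsa, leaving out the S6 kinase genes and pseudogenes. The rule found 84 genes (33 of the small subunit, 51 of the large) among the 22983 symbols that all 7 count tables share. It leaves out a few ribosomal proteins with other symbols, such as Fau and Rpl36al.

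RNA-seq was read from 88 libraries in 43 groups, which form 7 sets. All cells came from C57BL/6 mice, from spleen pooled with peripheral lymph nodes, and except for the Treg cells were sorted as naive (CD4+CD44-CD25-) and activated with anti-CD3 on the plate and anti-CD28 in solution. In set 1, wild-type (WT) cells given human IL-2 for 18 h after an overnight rest (day 4) stand against cells taken after the rest (day 3), with 3 libraries per group; all other groups hold 2. In sets 2, 3 and 5, STAT5-deficient (S5KO) and WT cells carried retroviral vectors and all received human IL-2 for 18 h, to day 4. The S5KO genotype was Stat5a/b flox/flox Cd4-Cre+/-, in which Cre runs from the Cd4 promoter and so acts in cells of the T lineage. The vectors in set 2 were STAT5, MYC or control, and in set 3 STAT5, AKT, CD25 (the IL-2 receptor alpha chain) or control. In set 5 each cell population got a pair of vectors: STAT5 with MYC, STAT5 with AKT, control with STAT5, control with MYC, control with AKT, or control with control. Set 4 holds S5KO and WT cells after 3 days as Th1 (IL-12 with anti-IL-4), Th2 (IL-4 with anti-IFNg), Th17 (TGF-b, IL-6, anti-IL-4 and anti-IFNg), iTreg (TGF-b, anti-IL-4 and anti-IFNg) or Th0, which had neither cytokine nor blocking antibody. Set 6 holds WT FoxP3+ natural regulatory T (Treg) cells after an overnight culture with IL-2 or directly ex vivo. Set 7 holds Stat5a-/- Stat5b+/- cells (called Stat5a-null here), Stat5a+/- Stat5b-/- cells (Stat5b-null) and WT cells after 4 days in Th0 culture with IL-2. In set 4 the cell type label of replicate 2 of both Th1 groups reads Th2, while the titles and treatments say Th1, which was followed.

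A ribosome is built from ribosomal RNA and about equal amounts of each ribosomal protein, so the cell has to make these proteins together and in large quantity. In mammals, ribosomal protein mRNAs begin with a run of pyrimidines (a 5' terminal oligopyrimidine, or TOP, motif), through which mTOR and the RNA-binding protein LARP1 control their translation and stability. MYC is known to raise transcription of ribosomal protein, rRNA and ribosome assembly genes. T cell activation and IL-2 are known for their demand on this machinery, because a naive cell grows strongly before it divides.

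Library totals ran from 3.9 to 49.1 M counts (median 16.85 M). Members took 5.13% to 20.8% of the counts (median 10.6%) after the ribosomal RNA transcript Rn45s was left out. The small subunit's part of the member counts stayed between 38.3% and 42.7% in every library. T cell markers summed to 1235 to 4205 CPM (counts relative to the library total) in each library. Stat5a checked the labels: it stood at 1.8 to 4.8 CPM in S5KO cells of set 4, against 150.9 to 569.0 CPM in WT, and at 1.0 to 19.3 CPM in S5KO cells of sets 2, 3 and 5 without a STAT5 vector, against 69.5 to 99.7 CPM in WT. In S5KO cells with a STAT5 vector it reached 513.7 to 1176 CPM. Stat5b stood at 25.7 to 70.7 CPM in those cells, against 138.8 to 209.8 CPM in WT without a STAT5 vector. In WT cells of set 3 with the STAT5 vector, Stat5a was 608.4 CPM in replicate 1 but 138.6 CPM in replicate 2. In set 7 Stat5a was 4.8 to 5.0 CPM in Stat5a-null cells and 99.1 to 111.0 CPM in Stat5b-null cells, against 189.4 to 191.4 CPM in WT. Stat5b in Stat5b-null cells was 29.1 to 32.0 CPM and in Stat5a-null cells 55.0 to 58.2 CPM, against 259.5 to 276.0 CPM in WT. In all, 5 libraries stand apart: replicate 1 of S5KO STAT5 with AKT (20.9% of counts on Rn45s), replicate 2 of the S5KO control of set 2 (1.045% on Rn45s), replicate 2 of WT STAT5 in set 3 (3.9 M counts), and replicate 1 of both S5KO control with control and S5KO control with MYC in set 5 (Stat5a over 15 CPM). Counts of called members of sets 2, 3 and 5 that moved by over 1.5 times, or whose balance of rises and falls turned, without those 5 libraries are given both ways.

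Of the 84 members, 73 stood above 100 CPM in every library. Another 4 core members (Rpl26, Rps27, Rpl30 and Rpl34) were counted at 0 to 21.0 CPM, and near-identical copies elsewhere in the genome could have taken their reads, so their values are uncertain. The remaining 7 are paralog-type symbols: Rps27l, Rpl22l1, Rpl7l1, Rps4l, Rpl39l, Rpl3l and Rpl10l, at 0 to 247 CPM. Rpl3l is known from striated muscle, and Rpl10l and Rpl39l from testis; Rps4l is annotated in RefSeq as a transcribed pseudogene and is kept because the symbol rule takes it. The test covered 81 members (Rpl26, Rpl3l and Rpl10l were too low), or 80 in the Treg set, where Rpl39l was too low as well.

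Start sites are shown for the members whose values moved apart from the rest of the family (Rps27l, Rpl22l1, Rpl7l1 and Rps2). They are also shown for 4 core members picked for a long pyrimidine run (Rps6, Rpl28, Rps18 and Rps10). Each window holds 30 bases before and 20 bases from the annotated start, 5' to 3' on the gene's strand, from RefSeq promoters on GRCm38.p6, and capitals mark the longest pyrimidine run of 5 or more bases that begins within 5 bases of the start. The windows lie at chr9:66946056-66946105 (plus strand, Rps27l), chr3:28805478-28805527 (plus, Rpl22l1), chr17:46782637-46782686 (minus, Rpl7l1), chr17:24720033-24720082 (plus, Rps2), chr4:86857348-86857397 (minus, Rps6), chr7:4792935-4792984 (plus, Rpl28), chr17:33955646-33955695 (minus, Rps18) and chr17:27635225-27635274 (minus, Rps10).
Rps27l: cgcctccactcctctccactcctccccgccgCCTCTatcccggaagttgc
Rpl22l1: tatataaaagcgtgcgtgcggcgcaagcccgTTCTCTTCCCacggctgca
Rpl7l1: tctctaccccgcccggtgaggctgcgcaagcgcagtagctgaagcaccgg
Rps2: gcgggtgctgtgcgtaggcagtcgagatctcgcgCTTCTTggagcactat
Rps6: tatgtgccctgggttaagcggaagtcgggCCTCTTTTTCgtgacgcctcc
Rpl28: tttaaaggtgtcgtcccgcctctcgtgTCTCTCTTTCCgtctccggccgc
Rps18: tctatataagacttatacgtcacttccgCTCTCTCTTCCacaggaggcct
Rps10: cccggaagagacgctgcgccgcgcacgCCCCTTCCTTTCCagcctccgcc

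Rpl7l1 has no run of 5 or more bases at its annotated start, the runs of Rps27l and Rps2 are short, and that of Rpl22l1 has 10 bases. Because Rps6, Rpl28, Rps18 and Rps10 were picked for their runs, the windows do not compare the 2 groups of genes. Of the 63 members with a promoter entry, 25 (39.7%) had a run of 5 or more, against 22.2% of 27025 promoters of all genes. A run of 8 or more was found in 15 (23.8%), against 4.78%, so most members lack a long run at the annotated start. Within the promoter window of 250 bases before to 50 bases after the start, searched on both strands, CCGGAAG (the core of an ETS-type site) was found in 25 of 63 members (39.7%), against 9.12% of all promoters. The E-box CACGTG, to which MYC with its partner MAX can bind, was in 5 members (7.94%), against 7.24%. The STAT-type palindrome TTCNNNGAA was in 3 members, Rpl35, Rpl4 and Rplp0 (4.76%), against 8.47%. These are matches of letters in a window, and sites farther away were not searched.

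In rested WT cells given IL-2, most of the members that moved were lower than at rest, while Rps27l and Rpl7l1 were higher. The IL-2 cells were taken on day 4 and the rested cells on day 3, so IL-2 and further culture cannot be told apart. Rps27l, a paralog of Rps27 known as a target of p53, stood at 107, 103 and 108 CPM with IL-2, against 48.5, 48.2 and 47.3 CPM at rest. Rpl7l1, a paralog of Rpl7, stood at 128, 123 and 131 CPM with IL-2, against 91.2, 83.7 and 86.5 CPM at rest. In both genes the groups did not overlap, and the log2 fold changes were 1.30 (SE 0.06, adjusted p = 9.7e-13) and 0.70 (SE 0.06, adjusted p = 3.9e-09) by edgeR's quasi-likelihood test with Benjamini-Hochberg adjustment over all genes, which gives every adjusted p below. The uncertain Rpl34 and Rpl30 also rose, by 0.99 and 0.63.

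The core family moved the other way. Rplp0, the base of the stalk that recruits elongation factors, stood at 4248, 4271 and 4380 CPM with IL-2, against 5522, 5713 and 5880 CPM at rest. Rps18, in the head of the small subunit, stood at 1538, 1626 and 1637 CPM with IL-2, against 2175, 2176 and 2268 CPM at rest. The 3 IL-2 libraries were below the 3 rested libraries for both genes. Their log2 fold changes were -0.25 (SE 0.07, adjusted p = 0.00187) and -0.31 (SE 0.06, adjusted p = 8.5e-05), and the largest falls among the called members were those of Rpl36 (-0.34), Rpl10a (-0.32), Rps18 and Rpl6 (-0.31). The family's share of counts was 11.4% ± 0.325 with IL-2, against 13.7% ± 0.470 at rest (SD, n = 3 each).

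In this comparison 12 of 81 members rose and 35 fell. Among all genes tested 40.7% were called higher and 40.3% lower, so the members' falls are near the background in number. The members' median log2 fold change was -0.11 and that of all genes -0.005. With scaling to total counts alone the split became 5 higher and 61 lower, against 4212 and 5786 of all genes, whose median moved to -0.16. With no filter on low counts the split was 17 and 21, against 5466 and 5200 of all genes. Without IL-2 replicate 2, 8 were higher and 23 lower. Set 1 has more antigen-presenting transcripts at rest. The myeloid list of 6 genes summed to 3.9 to 5.4 CPM with IL-2, against 81.9 to 96 CPM at rest. B cell markers summed to 2.9 to 3.1 CPM with IL-2, against 16.2 to 16.8 CPM at rest. The part of both lists in the result was not tested. Over all 88 libraries Cd74 had a median of 38.4 CPM, while Lyz2, Cd68, Itgam, Csf1r and Itgax had medians of 0 to 2.5 CPM. High sums of the myeloid list, here and below, are therefore mostly those of Cd74 and were not taken as a count of myeloid cells. In bulk libraries like these, fewer cells of a type and less RNA per cell cannot be told apart.

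**Figure D1:**
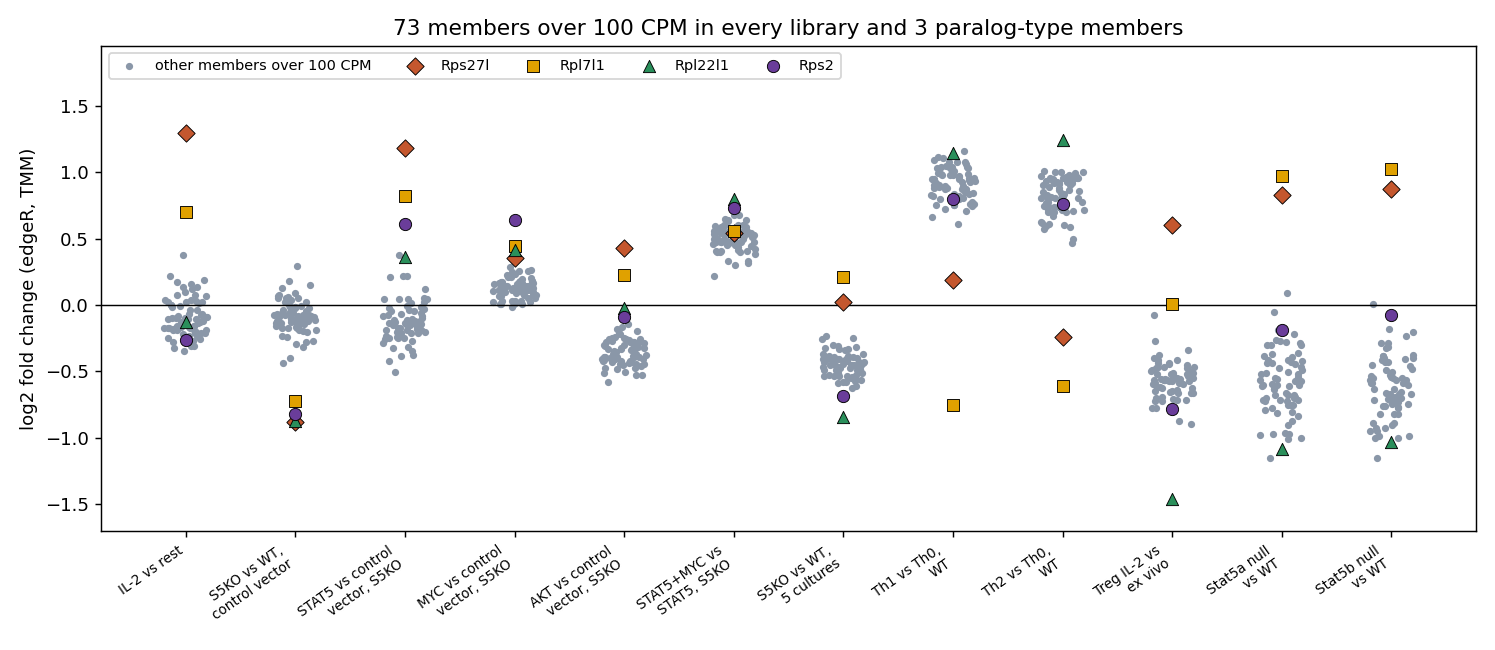
Log2 fold change (y axis) of the 73 members above 100 CPM in every library and of the paralog-type Rps27l, Rpl7l1 and Rpl22l1 in 12 comparisons (x axis), one point per gene; 4 genes are marked. The grey points form a compact cloud that lies above 0 in Th1 (0.61 to 1.16) and below it in Treg cells with IL-2 (-0.90 to -0.08), while Rps27l lies apart from the cloud at 1.30 with IL-2 and 1.18 with the STAT5 vector in S5KO cells.

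Loss of STAT5 in vector-transduced cells given IL-2 moved a few members strongly and most of the family little. With control vectors, Rps2 (a small-subunit protein near the mRNA entrance) stood at 2768 and 2728 CPM in S5KO cells of set 2, against 3116 and 3929 CPM in WT. It stood at 1780 and 1634 CPM in S5KO cells of set 3, against 2279 and 2269 CPM in WT, and at 1200 and 1089 CPM in S5KO cells of set 5, against 1852 and 2517 CPM in WT. S5KO cells were below WT within each set, with no overlap, and the log2 fold change was -0.82 (SE 0.10, adjusted p = 2.3e-09).

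Rps27l averaged over the sets fell by 0.88 (SE 0.11, adjusted p = 8e-09), with 58.7 and 47.5 CPM in S5KO cells of set 5, against 112 and 137 CPM in WT. In set 2 its S5KO libraries, at 102 and 140 CPM, overlapped the WT libraries, at 124 and 152 CPM. Rpl22l1, the paralog of Rpl22 (itself needed for alpha-beta T cell development in mice), fell by 0.87 (SE 0.12, adjusted p = 1.5e-07) and Rpl7l1 by 0.72. Rpl22l1 stood at 58.8 and 57.3 CPM in S5KO cells of set 2, against 109 and 116 CPM in WT. Among the rest, the low-counted Rps4l (-1.45) and Rpl34 (-0.86) fell, and Rpl37a was the called member that rose (0.29, SE 0.12, adjusted p = 0.0269; 0.25 with adjusted p = 0.0631 without the 5 libraries that stand apart).

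In total 1 member of 81 rose and 13 fell. This is below the background, as 29.0% of all genes tested were called higher and 31.4% lower. The member median was -0.10, against 0.06 for all genes. The sign of the family's median depended on scaling. With scaling to total counts 20 members were higher and 6 lower, against 6468 and 3769 of all genes. The member median was then 0.15 and that of all genes 0.30. With RLE scaling 2 members were higher and 9 lower, against 5221 and 4757 of all genes. Core members such as Rplp0 (0.18), Rplp1 (0.002), Rpl7 (-0.01), Rps4x (-0.07) and Rpl11 (-0.14, a 5S RNA partner known to bind Mdm2), did not pass the test. Rpl3 (-0.32), Rps6 (-0.29, the S6 kinase substrate) and Rpsa (-0.23) passed it. S5KO control libraries also held more T cell marker counts, 3162 to 3830 CPM against 1784 to 2297 CPM in WT, and more of the myeloid list, 71.1 to 263 CPM against 10.9 to 40.1 CPM; their part in the result was not tested.

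The STAT5 vector in S5KO cells raised Rps27l, Rpl7l1, Rps2 and Rpl22l1, which had fallen with the loss of STAT5. The core mostly did not pass the test or fell. These cells had Stat5a above and Stat5b below the WT level. Rps27l stood at 152 and 154 CPM with the STAT5 vector in set 2, against 102 and 140 CPM with the control vector. It stood at 169 and 170 CPM in set 3, against 90.3 and 67.3 CPM, and at 171 and 151 CPM in set 5, against 58.7 and 47.5 CPM. STAT5 libraries were above the controls within each set, and the fold change was 1.18 (SE 0.11, adjusted p = 8.3e-12). Rpl7l1 rose by 0.82 (SE 0.08, adjusted p = 4e-11), and Rpl4, a protein of the exit tunnel, by 0.38. The uncertain Rpl34 and Rpl30 rose by 1.19 and 0.80.

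Rps2 rose by 0.61 (SE 0.10, adjusted p = 8e-07) on average, though not in every set. It stood at 2504 and 2070 CPM with STAT5 in set 5, against 1200 and 1089 CPM with control, and at 2283 and 2644 CPM with STAT5 in set 3, against 1780 and 1634 CPM. In set 2 it was lower with STAT5, at 2417 and 2365 CPM, against 2768 and 2728 CPM. Rpl22l1 rose by 0.36 (SE 0.12, adjusted p = 0.0113), but by 0.04 in set 2 taken alone, and with total-count scaling it did not pass (0.19, adjusted p = 0.154).

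The falls with the STAT5 vector were those of core members: Rpl37a (-0.50), Rpl17 (-0.42, also of the exit tunnel), Rpl18 and Rps15a (-0.38), and Rplp0 (-0.32). In total 8 of 81 members rose and 12 fell, both below the background of 32.8% of genes called higher and 29.2% lower. The member median was -0.13, against -0.04 for all genes. The split became 6 higher and 53 lower with total-count scaling (4464 and 5927 of all genes) and 7 and 23 with RLE (5005 and 5270 of all genes). Leaving out 1 library at a time moved the member median between -0.228 and -0.095. Without the 5 libraries that stand apart the balance turned, with 10 higher and 8 lower and a member median of -0.06. With the STAT5 vector T cell markers summed to 1482 to 2119 CPM, against 3162 to 3830 CPM with control. The list of CD8 and NK cell markers summed to 12.7 to 16.0 CPM with STAT5, against 17.5 to 30.6 CPM. The myeloid list was lower with STAT5 within each set: 81.5 to 149.0 CPM against 198.9 to 263.4 CPM in set 2, 56.1 to 58.0 CPM against 162.4 to 206.0 CPM in set 3, and 30.8 to 32.5 CPM against 71.1 CPM in both control libraries of set 5. The part of these markers in the result was not tested. This comparison and the loss of STAT5 share the S5KO control libraries, so their values mirror each other in part.

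**Figure D2:**
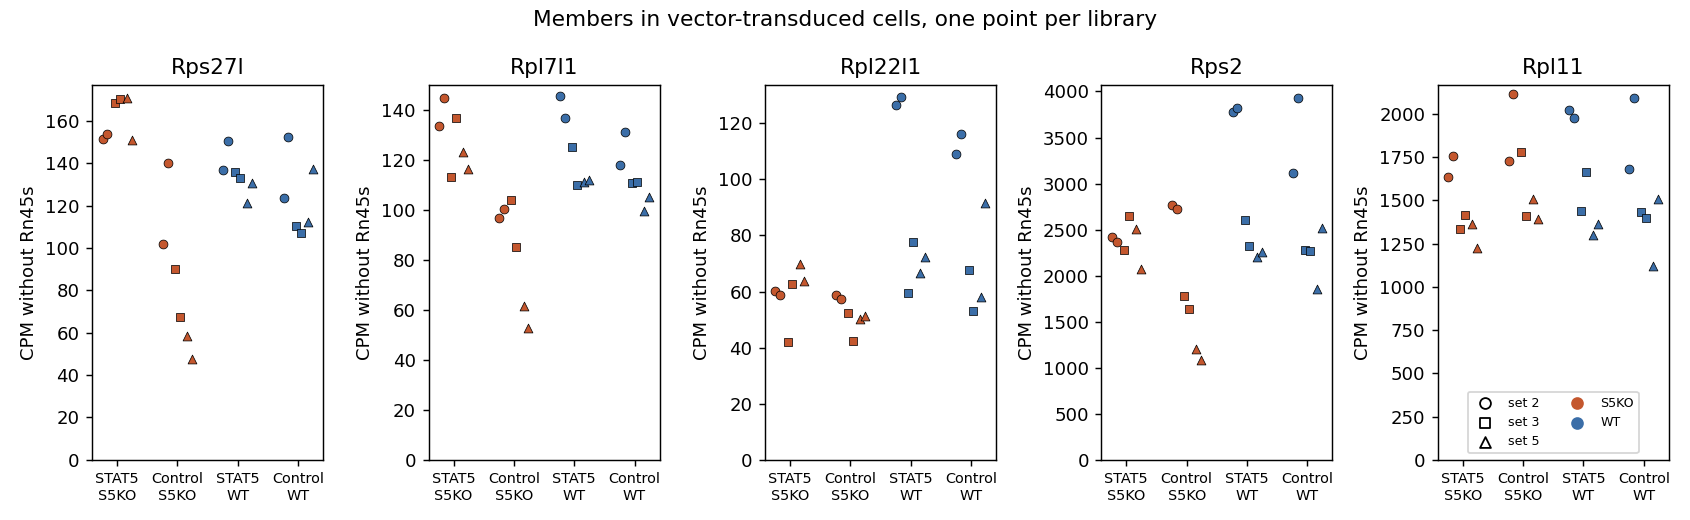
CPM without Rn45s (y axes, from 0) of Rps27l, Rpl7l1, Rpl22l1, Rps2 and, as a core member that did not pass the test, Rpl11, in S5KO (orange) and WT (blue) cells with STAT5 or control vectors; each point is a library and the marker shape gives the set. Rps27l reaches 151 to 171 CPM in S5KO cells with STAT5 and lies at 47.5 to 140 CPM in S5KO cells with the control vector, while the Rpl11 groups overlap.

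In WT cells the STAT5 vector raised 1 of 81 members, Rpl4 (0.31, SE 0.10, adjusted p = 0.0241), and lowered none by edgeR (2 members at an unadjusted p under 0.05). Of all genes, 9.81% were called higher and 8.96% lower. Without the 5 libraries that stand apart 2 members were called. The Rpl4 call was lost when replicate 1 of any STAT5 or control vector group of WT cells in sets 2, 3 or 5 was left out, or replicate 2 of the WT control of set 3. The vector's effect in S5KO cells exceeded that in WT cells for 4 members: Rps27l (a difference in log2 fold change of 1.05, SE 0.15, adjusted p = 3.9e-07), Rpl34 (0.85), Rpl7l1 (0.69, SE 0.11, adjusted p = 3.8e-06) and Rps2 (0.52, SE 0.13, adjusted p = 0.0014). No member's effect was called smaller by edgeR; 7 members in all had an unadjusted p under 0.05. With the replicate number as a block, or with only the libraries compared, 4 effects were larger and 2 smaller. Among all genes 25.9% had a larger and 19.1% a smaller effect in S5KO cells. In set 2 alone the difference for Rps2 was -0.35. The member median of the difference was -0.06, and 0.03 without the 5 libraries that stand apart. The split became 4 larger and 3 smaller with RLE scaling (3966 and 3506 of all genes) and 4 and 13 with total-count scaling (3412 and 4160 of all genes). It became 4 and 4 without replicate 1 of the S5KO control of set 2 or replicate 2 of that of set 3, and 4 and 3 without replicate 2 of the WT control of set 2 or set 5, or of WT STAT5 in set 2.

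Set against WT cells with control vectors, S5KO cells with the STAT5 vector had lower levels of part of the core. Rps16 (-0.40), Rpl32 (-0.39) and Rpl22l1 (-0.51, SE 0.12, adjusted p = 0.00075) fell, as did the low-counted Rps4l (-1.11), while Rps27l (0.30), Rpl4 (0.31) and Rpl30 (0.45) rose. Rpl7l1 (0.10, adjusted p = 0.355) and Rps2 (-0.21, adjusted p = 0.0732) did not pass the test. In total 3 members rose and 21 fell, against 20.4% and 19.6% of all genes. The member median was -0.20, against 0.03 for all genes. The myeloid list summed to 30.8 to 149.0 CPM in S5KO cells with STAT5, against 10.9 to 40.1 CPM in WT with control, and its part in the result was not tested. With total-count scaling 5 members were higher and 12 lower (4464 and 2557 of all genes). Without replicate 2 of the WT control of set 2, or of set 5, 3 were higher and 8 lower.

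MYC raised 2 members in S5KO cells, in which its own transcript rose by 2.89. Rps2 stood at 2314 and 2577 CPM with MYC in set 5, against 1200 and 1089 CPM with control vectors, and at 2977 and 2979 CPM in set 2, against 2768 and 2728 CPM. MYC libraries were higher within both sets (0.64, SE 0.12, adjusted p = 0.00015). Rpl7l1 rose by 0.44 (SE 0.10, adjusted p = 0.0022). No member fell (edgeR; 10 members had an unadjusted p under 0.05), and the background was 9.74% of genes higher and 3.41% lower. The member median was 0.13, against 0.02 for all genes. It was -0.05 in set 2 alone. Without the 5 libraries that stand apart the median was 0.27 and 4 members were called, Rps27l among them (0.58, adjusted p = 0.0225), and without replicate 2 of the S5KO control of set 5 the count was 1. The myeloid list was lower with MYC within both sets, at 133.7 to 192.5 CPM against 198.9 to 263.4 CPM in set 2 and 40.6 to 49.1 CPM against 71.1 CPM in set 5; its part in the result was not tested.

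In WT cells the MYC vector changed no member by edgeR or DESeq2 (2 at an unadjusted p under 0.05), with 0.894% of genes higher and 0.255% lower; Myc itself rose by 0.77 there, with an adjusted p of 0.0536. The difference between the MYC effects in S5KO and in WT cells passed for no member by edgeR or DESeq2 (2 unadjusted), with 1.35% of genes called larger and 0.0182% smaller. Its member median was 0.17, and 0.32 without the 5 libraries that stand apart.

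Adding MYC to STAT5 raised core members in S5KO cells, in a number that turned on single libraries; the effect was not tested against that of MYC alone. In S5KO cells of set 5 with STAT5 and MYC vectors, Rpl7a stood at 1733 and 1903 CPM, against 1218 and 1189 CPM with STAT5 and control. Rps2 stood at 3482 and 3653 CPM with both, against 2504 and 2070 CPM. Rpl22l1 stood at 102 and 117 CPM with both, against 69.9 and 63.8 CPM. The groups did not overlap for any of these 3 genes, and the fold changes were 0.68 (SE 0.18), 0.73 (SE 0.17) and 0.80 (SE 0.21). In total 23 of 81 members rose and none fell (edgeR; 67 at an unadjusted p under 0.05, 52 by DESeq2), against a background of 4.51% higher and 2.96% lower. With the replicate number as a block 36 members rose (1032 of all genes). All 81 fold changes were above 0, and the member median was 0.52, against -0.07 for all genes. The count rests on single libraries, as each group has 2: it was 0 without replicate 2 and 15 without replicate 1 of the STAT5 and MYC group, 1 without replicate 2 and 2 without replicate 1 of the STAT5 group, and 50 without the 5 libraries that stand apart.

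AKT, a kinase upstream of mTOR, lowered 39 of 81 members in S5KO cells. Rplp0 stood at 3026 and 3117 CPM with AKT in set 5, against 4530 and 4718 CPM with control vectors. In set 3 it stood at 4587 and 3528 CPM with AKT, against 6449 and 5238 CPM. Rps18 stood at 904 and 914 CPM with AKT in set 5, against 1455 and 1433 CPM. AKT libraries lay below their controls within each set for both genes. The fold changes were -0.51 (SE 0.12, adjusted p = 0.00104) for Rplp0 and -0.53 (SE 0.14, adjusted p = 0.00498) for Rps18, beside -0.58 for Rpl36 and -0.53 for Rpl18.

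Rps27l rose with AKT (0.43, SE 0.14, adjusted p = 0.0148), and Rpl22l1 (-0.02) did not pass. In total 1 member of 81 rose and 39 fell, against 17.2% of genes called higher and 11.9% lower. The member median was -0.35, against -0.01 for all genes. Akt1 rose by 2.26 and Myc fell by 1.39 in the same cells. With few libraries the count moved widely: 1 rose and 7 fell without AKT replicate 2 of set 3, 1 and 8 without control replicate 1 of set 3, 0 and 20 or 1 and 20 without replicate 1 or 2 of AKT in set 5, and 1 and 22 or 0 and 22 without replicate 1 or 2 of the control in set 5.

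In WT cells the members' median with AKT was -0.23, against 0.04 for all genes, and no member passed by edgeR (21 unadjusted, 1 by DESeq2), with 2.07% of genes higher and 4.02% lower. With total-count scaling 1 was higher, and without the 5 libraries that stand apart 1 was called. Adding AKT to STAT5 in S5KO cells gave a member median of -0.41 (-0.09 without the 5 libraries that stand apart) and no called member by edgeR or DESeq2 (53 unadjusted), with 0.213% of genes higher and 0.334% lower. That result turns on replicate 1, the library with 20.9% of its counts on Rn45s. Leaving out 1 library at a time moved the member median between -0.846 and -0.088. The CD25 vector changed no member in S5KO cells by edgeR or DESeq2 (0 unadjusted). Of all genes, 0% were called higher and 0% lower by edgeR. Il2ra, which encodes CD25, stood at 380 and 343 CPM with this vector, against 155 and 131 CPM with control. In WT cells of set 3 with the control vector it stood at 2393 and 2524 CPM.

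In WT cells polarised to Th1 or Th2, nearly all members stood above their Th0 level. The share of counts was 20.8% and 16.6% in Th1 and 20.6% and 14.8% in Th2, against 11.3% and 11.1% in Th0. In WT Th17 cells the share was 13.4% and 15.6%, and in iTreg cells 14.0% and 14.5%. Every polarised WT library lay above both Th0 libraries, and the Th1 and Th2 replicates differed from each other by several percentage points.

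Rps14, a small-subunit protein of the platform, stood at 2906 and 2211 CPM in WT Th1, against 1355 and 1215 CPM in Th0. Rpl22l1 stood at 214 and 127 CPM in Th1, against 92.4 and 81.4 CPM in Th0. The groups did not overlap, and the fold changes were 1.16 (SE 0.21, adjusted p = 0.00094) and 1.15 (SE 0.29, adjusted p = 0.00796), with Rpl27a (1.11) and Rpl36 (1.10) next. Rpl7l1 went the other way, at 88.1 and 94.7 CPM in Th1, against 159 and 182 CPM in Th0 (-0.75, SE 0.17, adjusted p = 0.004). In Th1 74 of 81 members rose and 1 fell, against 13.9% and 11.3% of all genes. The member median was 0.90 and that of all genes 0.12. Rps27l (0.19) did not pass the test.

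In Th2 72 members rose and 1, Rpl7l1 (-0.61), fell, against 13.6% and 12.2% of all genes; the member median was 0.82 and that of all genes 0.16. Rpl22l1 (1.24), Rps14 (1.01), Rpl13a (1.003) and the low-counted Rps27 (1.29) led. Both comparisons use the same 2 Th0 libraries. They also depend on single libraries: in Th1 0 rose and 1 fell without Th1 replicate 1, and 8 rose and 1 fell without Th0 replicate 2. In Th2 0 rose and 3 fell without Th2 replicate 1, none was called without Th0 replicate 2, and 44 rose and 1 fell without Th0 replicate 1. A fit to the 4 Th2 and Th0 libraries alone called 1 member.

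In Th17 cells 2 members rose, Rps7 (0.59, SE 0.17, adjusted p = 0.0438) and Rpl4 (0.57, SE 0.16, adjusted p = 0.0334), with 54 at an unadjusted p under 0.05 and a median of 0.47 (all genes -0.01; 5.39% higher, 3.50% lower). Leaving out any of the 4 libraries ended both calls. In iTreg cells the member median was 0.45, against -0.04 for all genes, and none was called by edgeR (52 unadjusted, 8 by DESeq2), with 6.33% of genes higher and 3.11% lower.

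Loss of STAT5 lowered the family in the polarised cultures, averaged over the 5 conditions. Rpl14 fell by 0.63 (SE 0.10, adjusted p = 0.00024) and Rpl36 by 0.61 (SE 0.10, adjusted p = 0.00033). The largest falls were those of Rpl22l1 (-0.84, SE 0.13, adjusted p = 0.00015) and Rps2 (-0.68, SE 0.09, adjusted p = 2.8e-05). Rps2 stood at 3234 and 3364 CPM in S5KO Th1, against 6073 and 4780 CPM in WT Th1, and at 1990 and 1986 CPM in S5KO iTreg, against 4212 and 3986 CPM in WT iTreg. In Th0 it stood at 3120 and 2989 CPM in S5KO, against 3329 and 3644 CPM in WT. Rpl7l1 rose by 0.21 (SE 0.07, adjusted p = 0.0435) on the average, with -0.45 in iTreg alone, and Rps27l (0.02) did not pass.

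In total 1 member rose and 72 of 81 fell, against 14.9% and 14.1% of all genes, and the member median was -0.43, against -0.03. In Th0 cells taken alone the share of counts was 11.6% and 12.0% in S5KO, against 11.3% and 11.1% in WT, the member median was 0.03, and no member passed by edgeR (0 unadjusted; 5.05% of genes higher, 3.18% lower). The median was -0.54 in Th1, where 1 member rose and 21 fell (all genes 7.26% and 6.73%), and -0.58 in Th2, where 1 rose and 34 fell (7.45% and 6.48%). It was -0.52 in Th17, where 8 fell (3.23% and 3.13%), and -0.55 in iTreg, where 44 fell (13.8% and 13.9%). Shares in S5KO were 12.2% and 13.6% in Th1, 13.2% and 12.2% in Th2, 10.4% and 10.6% in Th17, and 10.3% and 11.4% in iTreg. Each S5KO library of these 4 conditions lay below both WT libraries of its condition.

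Marker lists moved with genotype in some of these cultures. The myeloid list summed to 137.3 to 207.5 CPM in S5KO Th1, against 49.2 to 54.8 CPM in WT, to 85.2 to 126.1 CPM in S5KO Th17, against 23 to 31.7 CPM in WT, and to 146.4 to 214.3 CPM in S5KO Th0, against 50.4 to 68.5 CPM in WT. It overlapped between the genotypes in Th2 and iTreg. T cell markers summed to 2623 to 3004 CPM in S5KO iTreg, against 1406 to 1629 CPM in WT, and to 2494 to 2699 CPM in S5KO Th0, against 1894 to 2039 CPM in WT. The part of these markers in the result was not tested.

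The difference itself was tested as the mean loss in the 4 polarised cultures minus the loss in Th0. No member passed by edgeR (62 at an unadjusted p under 0.05, 7 lower by DESeq2), with 0.484% of genes called higher and 0.713% lower, so STAT5 loss was not shown to act differently in Th0. The member median of this difference was -0.57, against -0.02 for all genes. Leaving out 1 library at a time moved that member median between -0.643 and -0.398.

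**Figure D3:**
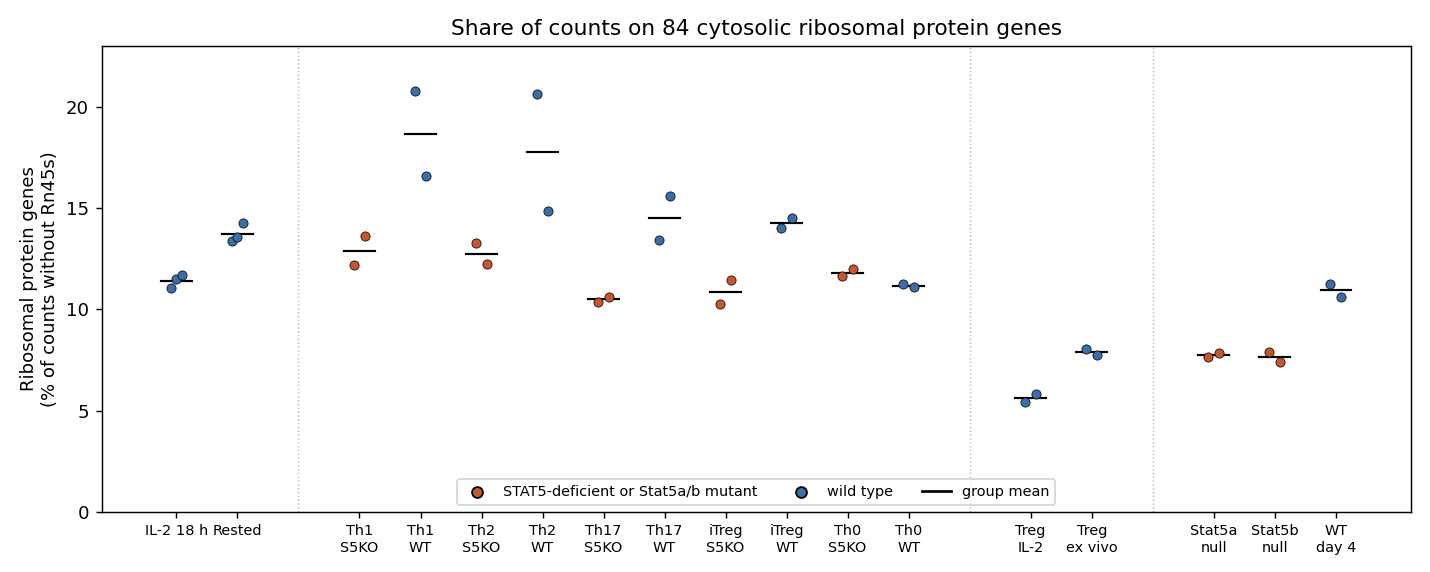
Share of counts on the 84 members (y axis, percent of counts without Rn45s, from 0) in sets 1, 4, 6 and 7, separated by dotted lines; each point is a library, bars are group means, and orange marks STAT5-deficient or Stat5a/b mutant cells. WT Th1 and Th2 libraries reach 14.8% to 20.8%, against 11.1% to 11.3% in WT Th0, and the S5KO libraries of set 4 span 10.3% to 13.6%.

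In Treg cells, overnight IL-2 was accompanied by lower levels of nearly all members. The share was 5.40% and 5.83% after IL-2, against 8.02% and 7.73% ex vivo. Rpl3, close to the catalytic centre of the large subunit, stood at 1010 and 1086 CPM after IL-2, against 1881 and 1854 CPM ex vivo (-0.90, SE 0.07, adjusted p = 9.2e-05). Rpsa, the laminin receptor homolog of the small subunit, stood at 1459 and 1572 CPM, against 2732 and 2593 CPM (-0.88, SE 0.08, adjusted p = 0.00016). Rpl22l1, which was counted low in these libraries, fell further than Rpl3 and Rpsa. It stood at 18.4 and 20.1 CPM after IL-2, against 48.6 and 53.2 CPM ex vivo (-1.46, SE 0.10, adjusted p = 4.7e-05). The groups did not overlap in any of the 3 genes.

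Rps27l rose here too, at 30.4 and 33.9 CPM after IL-2, against 18.4 and 22.1 CPM ex vivo (0.60, SE 0.13, adjusted p = 0.00897). Rpl7l1 (0.004), Rplp0 (-0.27, adjusted p = 0.0512) and Rpl4 (-0.08, named after its value was seen) did not pass. In total 1 of 80 members rose and 73 fell, against 15.5% and 15.9% of all genes, and the member median was -0.56, against 0.001. The comparison sets cultured against freshly isolated cells, so IL-2 and culture cannot be told apart. Other cells were present in both groups: B cell markers, with all 5 genes of the list detected, summed to 106.1 to 271.6 CPM after IL-2, against 102.5 to 225.4 CPM ex vivo, and the myeloid list to 137.3 to 333.1 CPM, against 184.5 to 418.1 CPM. T cell markers summed to 1831 to 1851 CPM after IL-2, against 2754 to 2812 CPM ex vivo. Their part in the result was not tested.

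Cells with only 1 Stat5b or 1 Stat5a allele left had lower levels of nearly all core members and higher levels of Rps27l and Rpl7l1 in both genotypes. Rps14 stood at 598 and 605 CPM in Stat5a-null and at 709 and 623 CPM in Stat5b-null cells, against 1363 and 1180 CPM in WT (-1.15 and -1.004). Rpl5, which with Rpl11 carries 5S RNA, stood at 1537 and 1609 CPM in Stat5a-null and at 1734 and 1590 CPM in Stat5b-null cells, against 3027 and 2840 CPM in WT (-0.97 and -0.89). Both genotypes lay below WT with no overlap. Rpl17 (-1.01 and -1.15) and Rpl22l1 (-1.09 and -1.03) were among the other leading falls, each with an adjusted p of at most 3.5e-06.

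Rps27l stood at 188 and 187 CPM in Stat5a-null and at 198 and 190 CPM in Stat5b-null cells, against 102 and 99.5 CPM in WT (0.83, SE 0.07, and 0.88, SE 0.06). Rpl7l1 stood at 234 and 234 CPM in Stat5a-null and at 240 and 247 CPM in Stat5b-null cells, against 108 and 119 CPM in WT (0.97 and 1.03, SE 0.07 in both). These directions are the reverse of those with STAT5 loss under control vectors, where both genes fell. Rpl34 rose by 0.85 and 0.98, and Rpl30 by 1.06 in Stat5a-null cells; it lost its call with DESeq2 (adjusted p = 0.0684).

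In Stat5a-null cells 4 of 81 members rose and 72 fell, against 28.7% and 28.2% of all genes, with a member median of -0.57 (all genes 0.01). In Stat5b-null cells 3 rose and 72 fell, against 28.2% and 28.3%, with a median of -0.58 (all genes 0.006). The shares of counts were 7.65% and 7.83% in Stat5a-null and 7.91% and 7.38% in Stat5b-null cells, against 11.2% and 10.6% in WT. The falls were uneven within the core: Rps29 (0.09 and 0.01) and Rps2 (-0.19 in Stat5a-null, adjusted p = 0.0328) moved little; Rps29 was named after its values were seen. Both mutant groups were compared with the same 2 WT libraries, so the likeness of the 2 results is partly shared. The myeloid list stood at 11.9 to 12.4 CPM in Stat5a-null and 51.4 to 57.5 CPM in Stat5b-null cells, against 57.5 to 60.5 CPM in WT; its part in the result was not tested.

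Genes that work with the ribosome were followed as fixed lists beside the ribosomal protein genes. A list of 30 assembly factors and escorts, which process rRNA and build the subunits (Fbl, Nop56, Bop1, Gnl3 and others), had 28 members higher and 1 lower with IL-2 at a median of 1.13, against 40.7% and 40.3% of all genes; the ribosomal protein median was -0.11. With control vectors 2 rose and 26 fell in S5KO cells (median -1.13), against 29.0% and 31.4% of all genes. With the STAT5 vector 28 rose and none fell (1.61), against 32.8% and 29.2%, and with MYC 25 rose and none fell (0.88), against 9.74% and 3.41%. In both Stat5 mutants the assembly list rose while the transcripts of most ribosomal protein genes fell. The list had 28 up and 0 down in Stat5a-null cells (0.88), against 28.7% and 28.2% of all genes. In Stat5b-null cells it had 29 up and 0 down (0.97), against 28.2% and 28.3%. In WT Th1 cells 21 of the 30 fell and none rose (-0.70), and in Th2 19 fell and none rose (-0.65), where 11.3% and 12.2% of all genes fell, again opposite in sign to the ribosomal protein genes.

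Elongation factors and other genes known for TOP mRNAs (22 names, 21 tested, such as Eef1a1, Eef2 and Tpt1) had 15 up and 0 down in both Th1 (median 0.66) and Th2 (0.64), where 13.9% and 13.6% of all genes rose. None rose and 19 fell in Treg cells with IL-2 (-0.43), and none rose and 17 fell with STAT5 loss over the 5 cultures (-0.35), where 15.9% and 14.1% of all genes fell. In Stat5a-null cells 3 rose and 15 fell (-0.47), against 28.7% and 28.2% of all genes. With IL-2 in set 1 11 rose and 6 fell (0.13), near the background of 40.7% and 40.3%. The 77 mitochondrial ribosomal protein genes, which serve another ribosome, had 66 up and 4 down with IL-2 (0.71), against 40.7% and 40.3% of all genes, and 4 up and 66 down with STAT5 loss under control vectors (-0.67), against 29.0% and 31.4%. Sample groups behind these list values are those of the comparisons above, and no difference between lists was tested.

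**Figure D4:**
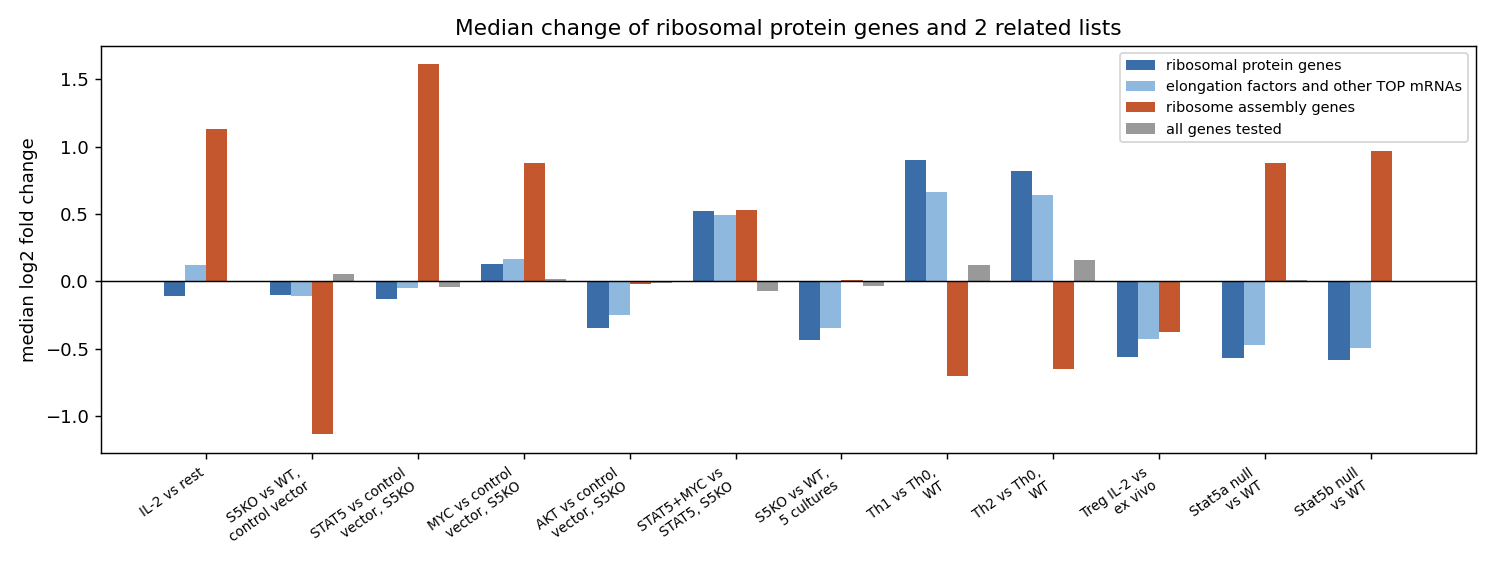
Median log2 fold change (y axis) of the ribosomal protein genes, the elongation and TOP list, the assembly list and all genes tested, in 12 comparisons (x axis). The assembly bars reach 1.61 with the STAT5 vector in S5KO cells, where the ribosomal protein bar is at -0.13, and in Th1 the bars stand at -0.70 and 0.90.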

How the data were processed

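The deposited values are whole-number read counts per gene symbol, deposited by the authors; TopHat2, Bowtie2, HTSeq and genome build mm9 are named, without versions, per the submitters' processing notes. RNA was TRIzol-extracted and poly(A)-selected, and libraries were made with NEBNext Ultra, per the labels' protocols. How the authors' counting treated reads that match several places is not given in the sources used here; ribosomal protein genes have many pseudogene copies, so low-counted members are uncertain. In sets 4 and 6, 27 rows whose names had become dates (at most 0.266% of a library's counts) were left out, and 250 symbols in sets 1 and 3 were given back a hyphen. The peak lists were not used here.

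CPM values are the deposited counts relative to the library total without Rn45s, compared within a set. Counts were tested with edgeR 4.0.16 in R 4.3.3 (filterByExpr, TMM, quasi-likelihood test, 1 mean per group, Benjamini-Hochberg over all genes), with calls at an adjusted p under 0.05. A common model covers sets 2, 3 and 5 (16445 genes), averaging within-set differences; sets 1, 4, 6 and 7 have their own (12261, 15298, 11941 and 12356 genes). A group of 2 libraries thus borrows its spread from its model. The procedure was tested on simulated data for sets 1, 4 and 7, with unpaired libraries and changes of at least 2 times. Smaller changes, paired libraries and the common model of sets 2, 3 and 5 were not simulated. Alternatives were DESeq2 1.42.0, other scalings, no low-count filter, a replicate block, only the libraries compared, and each library left out.

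Members and lists were chosen with earlier results of these data known. Named by a fixed rule were up to 4 called members per direction and comparison, the paralog-type members with their partners, and Rplp0, Rplp1, Rplp2, Rpsa, Rps6, Rpl5 and Rpl11. The values of 1 member that this rule names are not reported here. No label says that replicates came from separate cultures or animals, so p-values measure the spread between these libraries only. None of 47 replicate pairs is identical. Same-numbered libraries of sets 2, 3 and 5 deviated together (correlations 0.146 to 0.793 between the groups compared), as did S5KO and WT of each culture in set 4 (0.419 to 0.607). In sets 4 and 5 all replicate 1 libraries have Ddx3y and all replicate 2 libraries Xist above 10 CPM, and not the reverse. The replicates of a group in these sets thus came from different animals, and sex cannot be told apart from replicate number. The numbers were therefore taken as pairing the samples in these sets. Set 6 showed the same, with a correlation of 0.647, Xist in both replicate 1 libraries and Ddx3y in both replicate 2 libraries. In set 3 all 8 replicate 1 libraries had Xist only, and all 8 replicate 2 libraries Ddx3y, 1 with Xist as well. In set 2 all 6 replicate 1 libraries had Ddx3y, 3 with Xist as well, and all 6 replicate 2 libraries Xist only. In set 1 Ddx3y passed 10 CPM in 1 of 2 libraries of replicate 2 and of replicate 3. Same-numbered libraries of its groups thus differed, and the part of sex was not tested. The main fits had no term for the pairing, so their p-values are unpaired. It entered only the replicate block among the alternatives.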

Additional observations from a re-analysis of the deposited data

Results flagged for a closer look

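The effect of the STAT5 vector, set against a control vector, differed between S5KO and WT cells for 4 of 81 members by the test of the difference itself (edgeR). This is below the background, as 25.9% of all genes tested had a larger and 19.1% a smaller effect in S5KO cells. The difference in log2 fold change, S5KO minus WT, was 1.05 for Rps27l (1.18 in S5KO, 0.13 in WT) and 0.85 for the low-counted Rpl34 (1.19 in S5KO, 0.34 in WT). It was 0.69 for Rpl7l1 (0.82 in S5KO, 0.13 in WT) and 0.52 for Rps2 (0.61 in S5KO, 0.09 in WT). For Rps2 set 2 alone went the other way, at -0.35.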

How the results depend on the processing

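Counts are members called in either direction unless a split is given. Of 181 alternatives that left out no replicate, 131 kept the count of called members within 1.5 times, as did 168 of 206 that left out 1 library. With DESeq2 the count was 36 for the STAT5 vector in S5KO cells, 62 for AKT in S5KO, 1 for AKT in WT, 52 for STAT5 with MYC, 8 for the S5KO-minus-WT difference of the STAT5 effect, 7 for polarised cultures minus Th0, 11 for Th17 and 8 for iTreg. With total-count scaling it was 26 for STAT5 loss under control vectors (median 0.15, reversed), 59 for the STAT5 vector in S5KO, 63 for AKT in S5KO, 1 for AKT in WT, 17 for the STAT5 difference and 1 for polarised minus Th0. RLE scaling gave 7 for the STAT5 difference and 1 for Th17, and no low-count filter 1 for Th17. A fit to only the libraries compared gave 34 for the STAT5 vector in S5KO, 41 for S5KO with STAT5 against WT control, 1 for AKT in WT, 76 for STAT5 with MYC, 1 for Th2, 0 for Th17 and 9 for iTreg.

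The replicate block, with the pairing of numbers, gave 36 for STAT5 with MYC, where Rps27l also passed (0.54, adjusted p = 0.024), and changed no other count by more than 1.5 times. In set 1 the correlations between same-numbered libraries were -0.014 to 0.039 and the block count was 48, and in Th2 against Th0 the correlation was -0.005. Settings chosen after seeing the data were sets or cultures taken alone and leaving out the 5 libraries that stand apart. In sets 2, 3 and 5 alone the counts were 5, 5 and 8 for STAT5 loss, 2, 8 and 13 for the STAT5 vector in S5KO, 0, 0 and 0 in WT, and 11, 2 and 0 for S5KO with STAT5 against WT control. In set 2 alone Rpl30 (-0.10) and Rps27l (-0.052) reversed in that last comparison, the MYC count in S5KO was 0 and its median -0.051, and the STAT5 difference had a count of 0 and -0.35 for Rps2. In set 5 alone the median of that difference was 0.16. AKT in S5KO gave 3 in set 3 and 6 in set 5. Without the 5 libraries the counts were 2 for STAT5 in WT, 4 for MYC in S5KO, 1 for AKT in WT and 50 for STAT5 with MYC. By culture, STAT5 loss gave 0 in Th0 (median 0.029), 22 in Th1, 35 in Th2, 8 in Th17 and 44 in iTreg; Rpl7l1 reversed in iTreg (-0.45) and Th0 (-0.056).

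Leaving out 1 library gave 31 to 50 for IL-2, 10 to 14 for STAT5 loss, 15 to 33 for the STAT5 vector in S5KO, 0 to 1 in WT, 11 to 26 for S5KO with STAT5 against WT control, 1 to 3 for MYC and 8 to 60 for AKT in S5KO. It gave 0 to 15 for STAT5 with MYC, 0 to 64 for STAT5 with AKT, 4 to 8 for the STAT5 difference, 62 to 75 for the 5 cultures and 0 to 26 for polarised minus Th0. The ranges were 1 to 72 for Th1, 0 to 76 for Th2, 0 to 0 for Th17, 73 to 74 for Treg cells, 68 to 74 for Stat5a-null and 73 to 74 for Stat5b-null cells. The causes were not tested, and a lone library left in a group is assumed to vary like the other groups.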
